A study of Mus musculus with 2 samples.

Results

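Of 71238 DNase-seq peaks that both mice shared on chromosomes 1 to 19, 2390 had their midpoint inside protein-coding sequence and away from promoters. They are called coding peaks here. A coding peak is a peak of replicate 1 that overlapped a peak of replicate 2 by at least 1 bp. Its midpoint lay more than 500 bp from the transcription start site (TSS) of every protein-coding gene and inside a coding interval, the part of an exon that is translated. Genes and start sites were those of the GENCODE M21 basic annotation on mm10. Members were chosen by position among the shared peaks, and the footprints and sequences described below took no part in the choice. No limit was set on strength, but strong peaks were shared more often than weak ones, so the need for a peak in both mice favoured them.

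The tissue was thymus from 2 female mice of the hybrid strain B6CASTF1/J, 14 days old. B6CASTF1/J animals carry one C57BL/6J and one CAST/EiJ genome, and no transgene, deletion or treatment is named for either. The labels number them as separate females and as biological replicates 1 and 2, but give both the same donor identifier. With 1 group and no control the design holds no contrast between conditions, so values are given per replicate or as mean ± SD (n = 2), and no test was made. An exact sign permutation over 2 replicates cannot go below p = 0.5. Intervals in percent are 95% Wilson intervals and cover counting error only.

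DNase I cuts DNA where nucleosomes have been displaced, so a peak of cuts marks a stretch that regulatory proteins can reach. Most such stretches lie at promoters, in introns and between genes. Coding exons can also hold them: some transcription factors bind within codons, and an exon of one gene can act as an enhancer or an insulator for another. A footprint is a short run inside a peak that is cut less than its surroundings, as under a bound protein. CTCF, a zinc finger protein that anchors chromatin loops, protects one of the clearest footprints.

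The sequences of 9 coding peaks show what was measured. They were read from the mm10 reference (GRCm38.p6), which is the C57BL/6J genome, so alleles of CAST/EiJ are not shown. Each is written 5′ to 3′ on the coding strand of its gene. The first 4 are 3 of the 12 strongest coding peaks and the one in Cd8a, a co-receptor gene of thymocytes. Their capitals mark bases that lay in a footprint in both mice.

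Angptl6: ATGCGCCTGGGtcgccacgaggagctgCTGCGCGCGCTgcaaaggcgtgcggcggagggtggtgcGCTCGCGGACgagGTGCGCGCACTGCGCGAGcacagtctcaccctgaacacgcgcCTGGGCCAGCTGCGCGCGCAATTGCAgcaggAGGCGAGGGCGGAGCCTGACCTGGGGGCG
Lgals7: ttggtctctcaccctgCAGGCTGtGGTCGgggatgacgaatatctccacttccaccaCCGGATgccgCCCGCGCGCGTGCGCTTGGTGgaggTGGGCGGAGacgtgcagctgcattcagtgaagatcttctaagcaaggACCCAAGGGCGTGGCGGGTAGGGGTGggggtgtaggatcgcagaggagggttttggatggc
Ltb: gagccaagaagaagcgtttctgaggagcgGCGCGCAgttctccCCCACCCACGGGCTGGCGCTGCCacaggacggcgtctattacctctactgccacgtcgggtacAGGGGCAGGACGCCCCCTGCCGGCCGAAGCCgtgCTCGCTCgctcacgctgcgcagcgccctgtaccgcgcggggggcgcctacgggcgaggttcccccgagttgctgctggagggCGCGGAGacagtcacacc
Cd8a: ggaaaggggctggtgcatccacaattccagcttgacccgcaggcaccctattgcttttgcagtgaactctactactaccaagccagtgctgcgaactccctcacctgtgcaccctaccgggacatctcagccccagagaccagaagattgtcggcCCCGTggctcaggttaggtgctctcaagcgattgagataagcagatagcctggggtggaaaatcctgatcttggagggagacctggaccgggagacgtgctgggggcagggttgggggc

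The peak in Angptl6, the gene of an angiopoietin-like secreted protein, covered chr9:20878241-20878420 and had 105 of 180 bases under footprints of both mice. In the peak of Lgals7, which encodes the sugar-binding galectin 7, it was 74 of 200 bases (chr7:28866061-28866260). Ltb encodes lymphotoxin beta, a membrane cytokine of lymphocytes, and 75 of the 240 bases of its peak were capitals (chr17:35195741-35195980). The Cd8a peak at chr6:71374441-71374714 was much weaker, and only 5 of its 274 bases were in a footprint of both. The SP/KLF string GGGCGG, on either strand, lay wholly in capitals in Angptl6 and once in Lgals7, as did the E-box CAGCTG in Angptl6. The Ltb peak held none of the 16 strings searched.

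The other 5 hold a match to the CTCF consensus, which is in capitals on whichever strand it was found. They are 4 of the 5 strongest coding peaks with such a match and the one in Tox, a gene of a nuclear factor needed for thymocyte maturation.

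Atn1: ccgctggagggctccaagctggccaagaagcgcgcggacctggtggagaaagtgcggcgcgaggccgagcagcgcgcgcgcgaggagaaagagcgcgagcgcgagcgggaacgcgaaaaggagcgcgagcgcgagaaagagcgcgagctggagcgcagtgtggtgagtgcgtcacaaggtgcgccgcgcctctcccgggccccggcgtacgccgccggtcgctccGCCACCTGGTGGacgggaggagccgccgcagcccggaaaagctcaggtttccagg
Flot1: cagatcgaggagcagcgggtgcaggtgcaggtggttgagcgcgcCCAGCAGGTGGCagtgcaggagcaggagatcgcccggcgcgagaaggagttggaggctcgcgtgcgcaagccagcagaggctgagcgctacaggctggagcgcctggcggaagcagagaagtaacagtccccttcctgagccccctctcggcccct
Synpo2l: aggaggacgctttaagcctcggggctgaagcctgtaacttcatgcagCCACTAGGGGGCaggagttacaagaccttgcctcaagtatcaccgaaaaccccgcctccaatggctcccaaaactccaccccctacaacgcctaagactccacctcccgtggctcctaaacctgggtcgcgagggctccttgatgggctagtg
Pgls: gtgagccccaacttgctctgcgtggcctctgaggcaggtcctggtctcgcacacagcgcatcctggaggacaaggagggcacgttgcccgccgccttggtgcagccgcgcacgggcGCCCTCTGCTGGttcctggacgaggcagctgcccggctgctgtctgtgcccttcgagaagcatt
Tox: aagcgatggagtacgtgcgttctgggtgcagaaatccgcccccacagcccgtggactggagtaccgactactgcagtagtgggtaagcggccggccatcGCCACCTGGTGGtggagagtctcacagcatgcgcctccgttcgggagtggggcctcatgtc

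The matches in Flot1 (chr17:35829861-35830060), Synpo2l (chr14:20661021-20661220) and Pgls (chr8:71596001-71596180) were coding in all 12 bases. In Atn1 (chr6:124745521-124745800) and Tox (chr4:6688741-6688900) none was coding: the peak's midpoint was in the exon and the match in the intron after it. All 5 matches overlapped a footprint in both mice.

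The deposited value of a peak, its strength, has an unknown depth behind it and was used to rank peaks within a replicate and to compare classes. Replicate 1 had 94373 peaks on these chromosomes and replicate 2 had 105000. The label of the tissue was checked on promoters of marker genes: 7 of 7 thymocyte markers were open in both mice, against 0 of 3 for B cells, 1 of 3 for myeloid cells, 0 of 3 for thymic epithelium, 2 of 4 for endothelium and mesenchyme and 0 of 2 for hepatocytes. Those open in the listed cell types other than thymocytes were Itgam, Pecam1 and Pdgfra. In whole tissue, a weak peak in all cells and a strong peak in few of them cannot be told apart.

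Coding peaks were 3.35% of all shared peaks (3.23 to 3.49%), while coding sequence over 500 bp from a TSS was 1.30% of the sequence. They lay in 1951 genes, which is 9.38% of the 20807 protein-coding genes on these chromosomes. Of these genes 1611 had 1 coding peak, 266 had 2 and 74 had 3 or more. Their density was 76.7 per Mb of coding sequence, against 43.9 in untranslated exons, 29.6 in introns and 18.1 outside protein-coding genes. TSS-proximal sequence, within 500 bp of a start site, held 583 per Mb. The ratio of coding to intronic density was 2.59 for shared peaks, and 3.02 and 2.37 when each mouse's own list was used alone. Coding peaks are not all separate places: 83 overlapped another one, merging left 2347 regions, and they matched 2304 different peaks of replicate 2.

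The density of coding peaks depended on the distance to the nearest start site. It was 301 per Mb at 500 to 1000 bp, 198 at 1000 to 2000 bp, 82.1 at 2000 to 5000 bp, 63.1 at 5000 to 10000 bp, 44.3 at 10000 to 50000 bp and 38.1 beyond. Intronic density fell over the same classes from 207 to 15.3 per Mb. Within every distance class coding density was above intronic density, by a ratio of 1.45 nearest the start sites and 2.49 farthest from them. With each mouse's own list, the ratio was 1.35 ± 0.20 in the nearest class and 2.84 ± 0.58 in the farthest (SD, n = 2). The median coding peak lay 3747 bp from a start site, and the farthest 559577 bp.

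**Figure D1:**
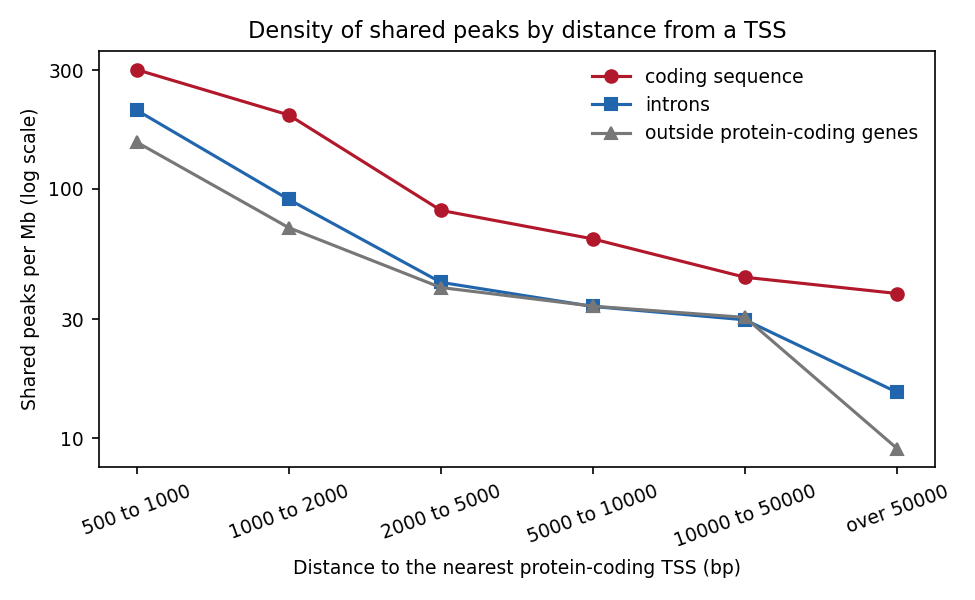
Shared peaks per Mb (log scale) in coding sequence, introns and the rest of the genome, in 6 classes of distance to the nearest protein-coding TSS. Coding sequence is highest in each class, from 301 per Mb at 500 to 1000 bp to 38.1 per Mb beyond 50000 bp.

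No gap in the distances marked the limit of 500 bp: 83 peaks with a coding midpoint lay in the last 50 bp before it and 81 in the 50 bp after it. The nearest peaks inside the rule were in Espl1, the gene of separase, at 501 bp with strengths of 0.395 and 0.403 in replicates 1 and 2, and in the proto-oncogene Mycn at 505 bp with 0.618 and 0.720. Just outside were peaks in Rab21 at 500 bp (1.68 and 1.70) and Ube2r2 at 498 bp (1.53 and 1.60). Some coding peaks lay near start sites that the rule did not use. Of the coding peaks, 566 (23.7%) lay within 500 bp of a start site of the comprehensive annotation, against 10.1% of intronic peaks, and 105 (4.39%) within 500 bp of one of any gene type in the basic set.

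Density also differed with the place of the interval in the transcript. First coding intervals held 448 coding peaks (18.7%, 17.2 to 20.4%) in 5.39% of the coding bases, a density of 267 per Mb. Internal intervals held 1206 (50.5%, 48.5 to 52.5%) in 71.3% of the bases, or 54.3 per Mb. Last intervals held 428 (17.9%) at 88.4 per Mb, and genes with a single coding interval held 274 (11.5%) at 132 per Mb. The other 34 lay in coding sequence of another isoform than the one used for position.

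Distance to the start site accompanied these differences. At 500 to 1000 bp the densities were 623 per Mb in first, 309 in internal, 275 in last and 139 in single intervals. Beyond 5000 bp they were 78.1, 42.8, 63.0 and 43.4. First intervals were thus above internal ones in both classes, and last intervals were above internal ones in 3 of the 4 classes of distance, all but the nearest. Along the coding sequence, divided into 20 equal parts, density fell from 118 per Mb in part 2 to 57.3 in part 17 and was 83.6 in the last part.

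**Figure D2:**
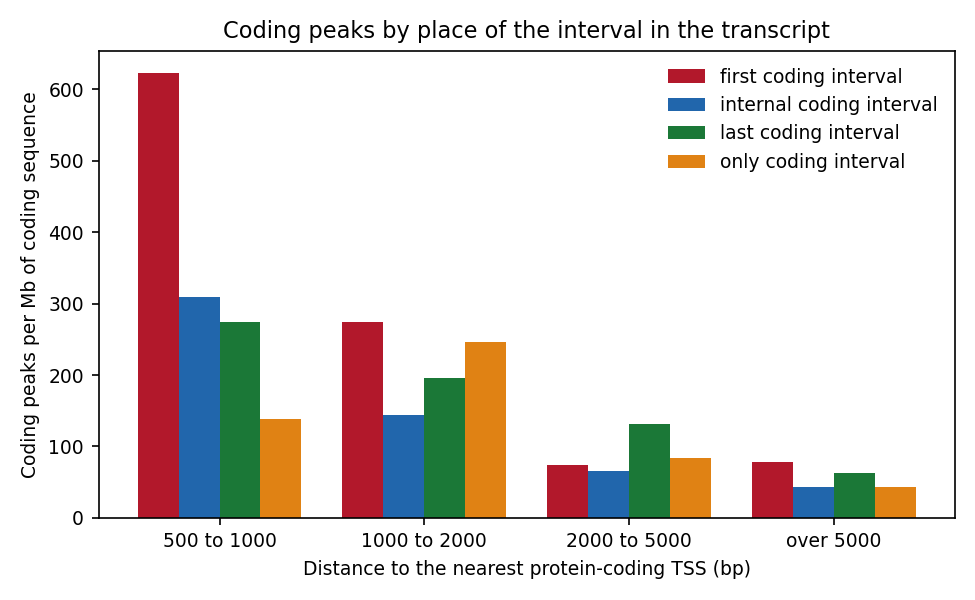
Coding peaks per Mb of coding sequence for first, internal, last and only coding intervals, by distance to the nearest protein-coding TSS. First intervals reach 623 per Mb at 500 to 1000 bp, and internal intervals fall from 309 to 42.8 per Mb.

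Most coding peaks ran past an end of the coding interval. Of 2390, 901 (37.7%) lay wholly inside the coding interval that held the midpoint, 949 (39.7%) ran past 1 end of it and 540 (22.6%) past both. Among those past 1 end, 569 ran past the 3′ end and 380 past the 5′ end. In internal intervals 251 of 1206 stayed inside and 398 ran past both ends. In single-interval genes 219 of 274 stayed inside. The median coding peak was 83.6% coding. The intervals that held coding peaks had a median length of 254.5 bp, against 126 bp for all coding intervals, and a longer interval has more room for a midpoint. Coding peaks were 201.5 bp wide in the median in replicate 1 and 240 bp in replicate 2.

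Where a gene had several isoforms, the interval was mostly common to them. Of 1316 coding peaks in such genes, 932 (70.8%) lay in coding sequence of every isoform. The gene of the exon was also the gene with the nearest start site for 1859 (77.8%). For 17 the midpoint lay in coding sequence of more than 1 gene. By chromosome, density ranged from 58.8 per Mb on chromosome 5 to 104 per Mb on chromosome 19.

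A promoter was called open where both mice had a peak within 500 bp of a start site of the gene. Open promoters were found for 59.4% of all protein-coding genes and for the genes of 1850 coding peaks (77.4%). Coding peak density was 88.3 per Mb in genes with an open promoter and 52.9 per Mb in the others, a ratio of 1.67. A coding peak that reached to within 500 bp of a start site counted towards an open promoter itself. The 2 measures are therefore not independent, and how much of the ratio comes from such peaks was not tested. The 540 coding peaks in genes without one lay farther from start sites (median 5545.5 bp against 2826 bp). Their median strengths, 0.839 and 0.803 in replicates 1 and 2, were close to those in genes with an open promoter, 0.880 and 0.849.

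Coding peaks were mostly weak. Their median strength was 0.873 in replicate 1 and 0.841 in replicate 2, against 0.909 and 0.875 in introns and 3.70 and 2.76 near start sites. The log2 difference from introns was -0.06 in both replicates, but it turned to 0.044 when shared peaks had to overlap reciprocally by 50%, and was -0.20 without replicate 2. From TSS-proximal peaks it was -1.90 ± 0.26 (SD, n = 2). The highest strength of a coding peak was 25.3 in replicate 1 and 12.7 in replicate 2, and 80% of them lay between 0.379 and 3.25 in replicate 1 and between 0.374 and 2.55 in replicate 2. Over the 90th percentile of strength in both mice were 7.32% of all shared peaks and 35 coding peaks (1.46%). Strengths of the 2 mice ranked alike: across coding peaks Spearman's rho was 0.824, and Pearson's r on the log2 scale 0.833. Both describe peaks that share their libraries, and carry no p.

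Coding peaks of both mice were shared at similar rates, on different backgrounds. Of 3709 coding peaks of replicate 1, 64.4% (62.9 to 66.0%) overlapped a peak of replicate 2, against 75.5% of all its peaks. Of 3425 in replicate 2, 66.9% (65.3 to 68.4%) overlapped one of replicate 1, against 66.6% of all. Among the weakest 25% of replicate 1's peaks, 35.5% of coding peaks were shared against 44.6% of all peaks, and among the strongest 25% it was 97.8% against 97.2%. Among the weakest 25% in replicate 2, 26.3% of its coding peaks were shared against 24.0% of all, and in the 25% below its strongest, 92.2% against 87.3%. Weak coding peaks were thus below the background of all peaks in replicate 1 and above it in replicate 2.

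The 12 strongest coding peaks, ranked by the lower of their 2 percentiles of strength, lay in Angptl6, a, Lgals7, Inpp5b, Ltb, Ankrd24, Notch4, Zfp771, Fbxl22, Clk3, Gdf15 and Trim8. Their strengths ran from 10.6 to 25.3 in replicate 1 and from 5.84 to 12.7 in replicate 2. All 12 were higher in replicate 1, as were most shared peaks: the median log2 ratio of replicate 2 to replicate 1 over all shared peaks was -0.22. They were rich in G and C, with 62.5 to 75.5% in the central 200 bp. Of them 7 lay in a last coding interval, 3 in a first and 2 in an internal one, and 7 were coding throughout.

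The Angptl6 peak led the ranking, with strengths of 22.1 in replicate 1 and 12.7 in replicate 2. It lay wholly in the first of 5 coding intervals, 1396 bp from the gene's start site, and held 5 and 6 footprints. The promoter of Angptl6, defined as above, was not open.

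The peak in a, the nonagouti gene of coat colour signalling, had 19.1 and 9.20 (chr2:155050681-155050880). It lay in the last of 3 coding intervals, 37250 bp from the gene's own start site, and 57.5% of its bases were coding. The Lgals7 peak had 25.3 and 8.46 and spanned the end of the coding sequence, with 55.5% of its bases coding. Neither gene had an open promoter.

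Ltb is a lymphocyte gene with an open promoter, and its peak of 13.9 and 9.69 lay wholly in the last of 3 coding intervals, 1235 bp from the start site. Notch4 encodes a Notch receptor known for its role in endothelium. Its peak of 12.7 and 9.63 (chr17:34587541-34587740) was in the last of 30 coding intervals, 23373 bp from its own start site but 2165 bp from that of the neighbouring gene Gpsm3. The promoter of Notch4 was not open. The Zfp771 peak (11.9 and 6.66; chr7:127254061-127254280) lay in the last coding interval of a zinc finger gene, with the nearest start site, 6538 bp away, belonging to Dctpp1. A further coding peak in the same interval of Zfp771 had 6.79 and 3.81.

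The Inpp5b peak, in a gene of a phosphoinositide phosphatase, reached 17.2 and 7.25 (chr4:124751421-124751640). It lay 9681 bp from a protein-coding start site but 177 bp from that of the noncoding transcript Gm12915, so it is proximal to a start site of another kind. Ankrd24, Fbxl22 and Clk3 had strengths of 16.2, 14.0 and 10.7 in replicate 1 and of 6.80, 6.03 and 6.04 in replicate 2. Gdf15, the gene of a stress-induced cytokine, had 10.6 and 8.22, and Trim8, a ubiquitin ligase gene, had 14.2 and 5.84. The Clk3 peak was only 699 bp from the start site of its gene, a kinase of splicing factors, and that promoter was open.

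**Figure D3:**
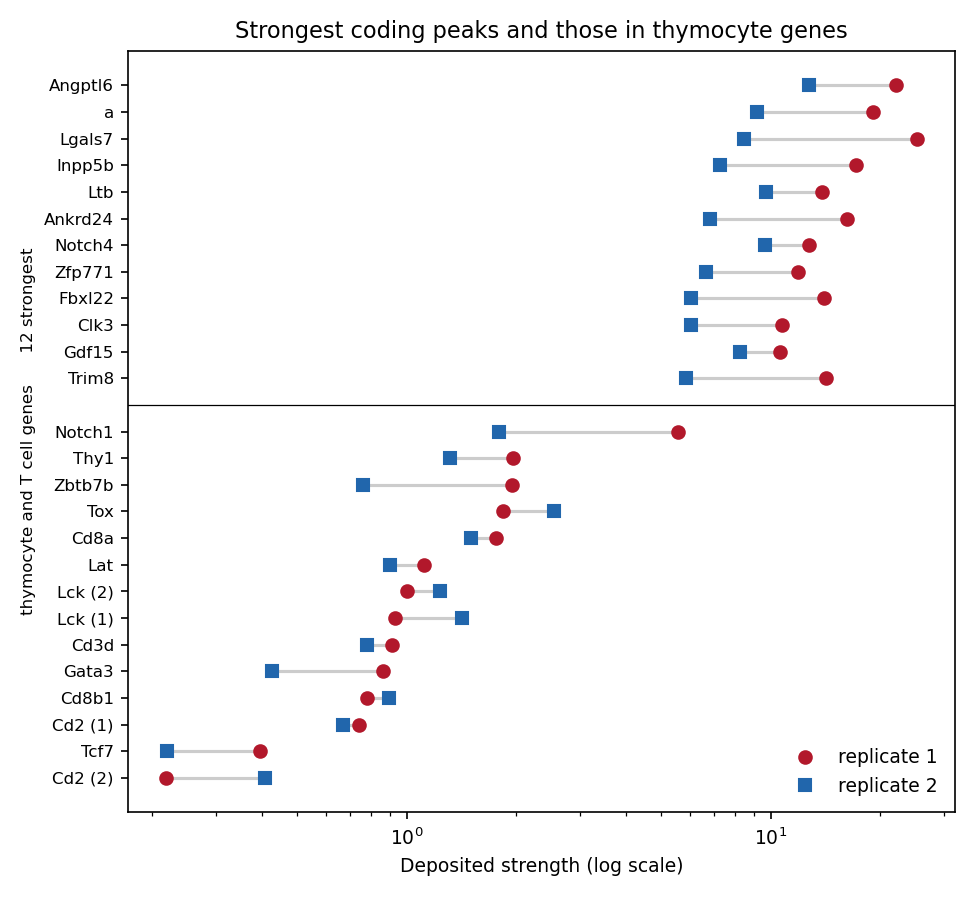
Deposited strength (log scale) in replicate 1 (circles) and replicate 2 (squares) of the 12 strongest coding peaks and of the 14 coding peaks in thymocyte and T cell genes. The strongest lie between 5.84 and 25.3, and among the others the highest is that of Notch1, at 5.58 and 1.80.

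Genes that define thymocytes and T cells held coding peaks in 12 of 40 cases (30%), against 9.38% of all genes. All 40 had an open promoter, a state in which 12.1% of genes had a coding peak. The 14 peaks gave a density of 235 per Mb, against 88.3 per Mb in all genes with an open promoter. Their median strength of 0.966 and 0.895 differed little from 0.873 and 0.841 over all coding peaks. Some of the 14 were mostly noncoding. In the peaks of Cd8a, Tcf7 and Lat, 38.3, 38.5 and 40.4% of the bases were coding, and in one of Lck 30.9%. The others of the list had over 50%, and of all 2390 coding peaks 229 had under 50%. The list was chosen with earlier results of these data known, and no test was made on it.

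Notch1, the receptor whose signal commits progenitors to the T lineage, had the strongest of the 14 in replicate 1. Its peak at chr2:26468441-26468740 had 5.58 and 1.80, lay wholly in coding interval 25 of 34 and was 35231 bp from the gene's own start site. The nearest protein-coding start site was that of Sec16a, at 23375 bp, and the start of the microRNA gene Mir6996 was 1528 bp away. Tox had 1.84 and 2.55, one of 5 peaks of the list that were higher in replicate 2. The Tox peak lay 652 bp from the start of the antisense gene Gm11802. The Cd8a peak, over coding interval 2 of 5, had 1.76 and 1.503, and the one in Cd8b1, the partner chain, had 0.779 and 0.892. Thy1, a surface marker of T cells, had 1.96 and 1.32 at 627 bp from its start site. The midpoint of the Thy1 peak was coding in 1 of 3 isoforms, and the peak held 3 footprints in replicate 1 and 0 in replicate 2. Of these 5 genes, Cd8b1 alone had a strength under the median of all coding peaks, and only in replicate 1.

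Lck, the kinase that starts T cell receptor signalling, had coding peaks over interval 5 (1.00 and 1.24) and interval 9 (0.930 and 1.42) of 13. In the same order, these lay 770 and 2190 bp from the start of the microRNA gene Mir8119. Lat, the adaptor Lck acts through, had 1.12 and 0.898. The Lat peak lay 993 bp from the start site and 496 bp from the start of the microRNA gene Mir7058. Cd3d, a chain of the receptor complex, had 0.909 and 0.777. Zbtb7b, the factor that directs CD4 lineage choice, had 1.95 and 0.760 in its last coding interval, where it held 4 and 5 footprints. Gata3, a T lineage factor, had 0.862 and 0.426, and Tcf7, another, had only 0.395 and 0.219. Cd2, an adhesion molecule gene, had 0.738 and 0.668 in its last interval and 0.218 and 0.409 in interval 3 of 5.

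In the 30 genes of proximal antigen receptor signalling, all with an open promoter, 7 (23.3%) held 8 coding peaks, or 133 per Mb. Of all genes with an open promoter 12.1% held a coding peak, at 88.3 per Mb. Besides Lck and Lat they were Dgka, Dgkz, Ptpn22, Ptpn6 and Sos1, which encode kinases of diacylglycerol, phosphatases and an exchange factor for Ras. The Lck and Lat peaks were also counted in the thymocyte and T cell list, so these lists are not independent. The Dgkz peak had 4.90 and 1.87 and lay 872 bp from a start site. Among 27 chromatin genes, all with an open promoter, 5 (18.5%) held a coding peak, or 32.5 per Mb, among them Arid1a, Chd4, Dnmt3a and Kmt2a. The antigen receptor list was above genes with an open promoter by both measures, and the chromatin list was above them in the share of genes and below them in density.

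Lists of other tissues were not empty. Over all genes the share with a coding peak was 9.38%, at 76.7 per Mb. Coding peaks were found in 2 of 14 B cell genes (Bank1 and Blnk), 2 of 16 myeloid genes (Cebpa and Spi1), 1 of 14 neuronal genes (Gad2), 1 of 15 hepatocyte genes (Apoa1) and 4 of 16 striated muscle genes (Actn3, Ckm, Myh6 and Ryr1). These are 14.3, 12.5, 7.14, 6.67 and 25% of the genes. Their densities were 102, 87.8, 80.7, 31.01 and 24.7 per Mb, so the muscle list was above all genes in its share and below them in density. Spi1 encodes a myeloid and early progenitor factor, and its peak in the last coding interval had 0.987 and 1.42. Apoa1, whose promoter was not open, had 1.44 and 0.990 in its last coding interval.

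Gene families differed widely from the 9.38% and 76.7 per Mb of all genes. Olfactory receptor genes held 4 coding peaks in 1128 genes (0.355% of genes, 6.96 per Mb), and 1.15% of these genes had an open promoter. Vomeronasal receptor genes held none in 329 genes. Keratin genes held 9 in 53 genes (17.0% of genes, 156 per Mb), although 3.77% had an open promoter. The strongest keratin peak was in Krt222, with 10.8 in replicate 1 and 2.39 in replicate 2, and the next in replicate 1 was in Krt86, with 2.40 and 3.53. Zfp genes held 31 in 385 genes (5.97% of genes, 42.9 per Mb) with open promoters in 83.1%, so keratin and Zfp genes stood in opposite order in density and in promoter state. Ribosomal protein genes, with 4 in 72 genes, had 131 per Mb of a short coding sequence, and solute carriers, with 38 in 358 genes, had 68.0 per Mb. The other families had 740 per Mb (2 peaks in clustered histone genes, with little eligible sequence) or 32.3 to 53.1 per Mb (protocadherin, Hox, collagen, kinesin and ankyrin repeat genes).

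Some genes held several coding peaks. Plxnd1, a semaphorin receptor gene with known roles in thymocyte migration, held 5 in 5.474 kb of eligible coding sequence, as did Cmya5, a muscle gene, in 10.879 kb and Ccdc162 in 6.432 kb. Kifc2 held 4 in 2.216 kb and Dusp6, a phosphatase gene of the MAP kinase pathway, 4 in 1.103 kb. In Plxnd1, 3 of the peaks lay in the first coding interval and 2 of these started at the same base, so they are not independent. Their strengths ranged from 1.02 to 2.18 in replicate 1 and from 0.766 to 1.40 in replicate 2. In Cmya5 all 5 lay in one interval of 9310 bp, around the start of the antisense gene A630019I02Rik, the nearest at 92 bp. In Ccdc162 the 5 lay in 5 intervals, and the strongest had 6.91 and 2.13. In Kifc2, 3 of the 4 matched a single replicate 2 peak of 1000 bp, and the strongest had 11.9 in replicate 1. In Dusp6 a peak of 140 bp lay wholly inside one of 740 bp, and both matched the same replicate 2 peak of 820 bp. In Cmya5, 2 of the peaks also matched a single replicate 2 peak.

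Coding peaks differed in composition from windows centred on other coding intervals. The median GC content in the central 200 bp was 60.5%, against 49.5% in 169236 windows of 200 bp centred on coding intervals that no peak of either mouse overlapped. The ratio of observed to expected CpG was 0.518 against 0.315. Coding intervals had a median length of 126 bp, so many of these windows also held noncoding bases beside the interval. The windows lay more than 500 bp from a start site but were not otherwise matched to coding peaks for distance. In coding peaks the CpG ratio was 0.758 in first, 0.399 in internal, 0.596 in last and 0.769 in single coding intervals. Sequence repeated in the genome was rare: 14 coding peaks had more than 1 genome copy by the median of their 32-base words. The strongest of them was in Paqr6, with 2 copies and strengths of 7.82 and 2.90.

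Consensus strings were searched on both strands of the central 200 bp. Letters are given with each result, and the longer strings of CTCF, NRF1, IRF, MEF2 and HNF1 by name. Some overlap: the CTCF consensus can contain CAGGTG. A match describes letters and shows no binding.

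The CTCF consensus was found in 124 coding peaks (5.19%, 4.37 to 6.15%), against 7.09% of all shared peaks, 8.94% of those in introns or outside genes and 0.0727% of coding windows without a peak. The gap to those windows was also found within classes of GC content: at 50 to 60% GC the shares were 6.25% of 896 coding peaks and 0.102% of 70318 windows, and at 60 to 70% GC 3.71% of 943 and 0.152% of 13812. CTCF was the string with the largest ratio to coding windows of the 14 that any coding peak held, at 71.4. In contrast, its share was below that of peaks in introns or outside genes. Those peaks lay farther from start sites, with medians of 15484 bp in introns and 26394 bp outside genes, against 3747 bp for coding peaks.

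SP/KLF and ETS strings were more frequent than in both of these backgrounds and near their share in all shared peaks. The SP/KLF string GGGCGG was in 508 coding peaks (21.3%), against 22.5% of all shared peaks, 11.9% of those in introns or outside genes and 4.64% of coding windows. At 60 to 70% GC it was in 25.1% of coding peaks and 15.9% of windows, and above 70% in 52.4 and 49.6%. The ETS string CCGGAAG was in 124 (5.19%), against 5.58% of all shared peaks, 3.03% and 2.19%, and at 60 to 70% GC in 6.57% of coding peaks and 4.12% of windows. ETS factors include Ets1 and other regulators of T cells as well as widely expressed ones.

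E-boxes, the sites of the thymocyte factors E2A and HEB among others, were common. CAGCTG was in 616 (25.8%), against 18.8% of all shared peaks, 20.5% of those in introns or outside genes and 15.1% of windows. CAGGTG was in 806 (33.7%), against 25.4%, 28.004% and 21.3%. At 60 to 70% GC the gap to windows was narrower: 28.8 and 25.8% for CAGCTG, and 37.9 and 35.4% for CAGGTG.

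Strings of other lymphoid factors were found in smaller shares. The RUNX string TGTGGTT was in 100 (4.18%, 3.45 to 5.06%), against 7.40% of all shared peaks, 9.10% of those in introns or outside genes and 3.41% of windows. By GC content, RUNX was in 12.9% of the 202 coding peaks under 50% GC, where 3.83% of windows held it. At 50 to 60%, the class with 60 of the 100 matches, it was in 6.70% of 896 coding peaks and 3.19% of windows. At 60 to 70% it was in 1.17% of coding peaks and 2.01% of windows. The GATA string AGATAA was in 77 (3.22%), against 6.04% of all shared peaks and 8.62% of windows. Within classes of GC content the gap to windows was small: GATA was in 14.9% of coding peaks and 13.4% of windows under 50% GC, in 3.68 and 4.33% at 50 to 60%, and in 1.38 and 1.10% at 60 to 70%. The TCF/LEF string CTTTGAT was in 71 (2.97%, 2.36 to 3.73%), against 3.13% of all shared peaks and 3.74% of windows. The Ikaros string TTGGGAA was in 40 (1.67%), against 2.45% and 3.58%.

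The AP-1 string TGANTCA was in 54 (2.26%), against 5.62% of all shared peaks and 4.69% of windows. Within classes of GC content its gap to windows was smaller. Under 50% GC, AP-1 was in 6.44% of coding peaks and 5.77% of windows. At 50 to 60% it was in 2.90 and 3.87%, and at 60 to 70% in 1.48 and 2.39%. IRF was in 31 (1.30%), against 2.14% and 2.93%. The YY1 string AAGATGGC was in 28 (1.17%), against 1.90% and 1.40%. The cyclic AMP response element TGACGTCA was in 12 (0.502%), against 0.985% and 0.269%. NRF1 was in 5 (0.209%), against 0.472% and 0.0160%, and 2 of the 5 were among the 12 strongest coding peaks. MEF2 and HNF1, strings of muscle and liver factors, were in none, which allows a share of up to 0.126% by a limit of 3 counts, and were in 0.0632% and 0.00421% of all shared peaks. Among the 12 strongest coding peaks 8 held the SP/KLF string and none the CTCF consensus.

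**Figure D4:**
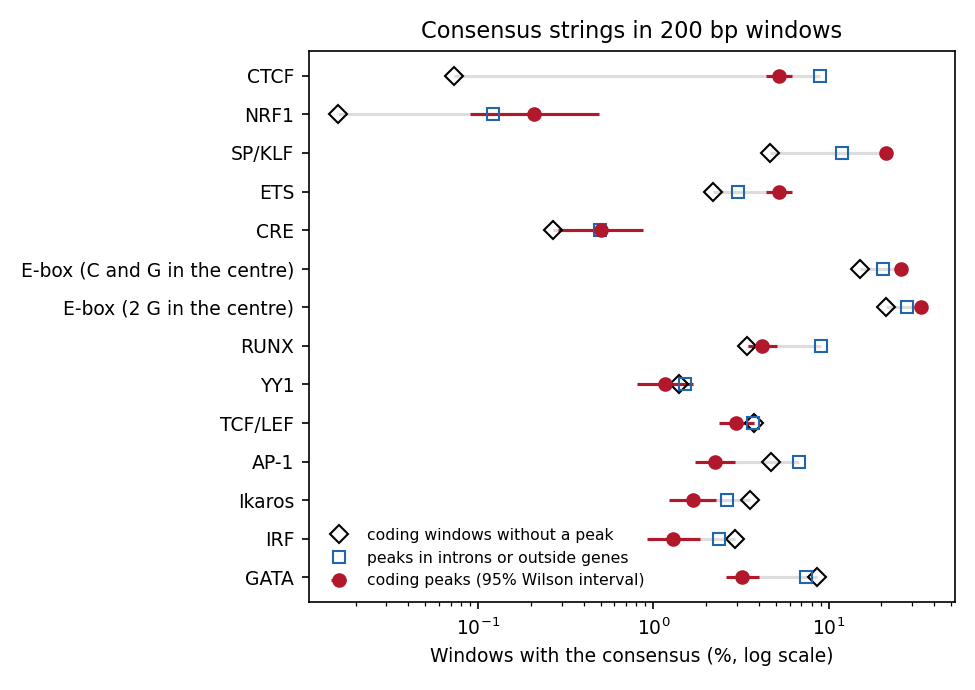
Share of windows of 200 bp (log scale) that held each consensus string, for coding peaks with 95% Wilson intervals, coding windows without a peak, and shared peaks in introns or outside genes. CTCF has the widest gap, from 0.0727% of coding windows to 5.19% of coding peaks.

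The 124 CTCF matches lay in 123 genes. Of these matches 97 were wholly coding, 50 were on the coding strand of the gene and 74 on the other. In replicate 1, 113 (91.1%) overlapped a footprint, in replicate 2, 122 (98.4%), and 113 did in both. The reading frame was known for 94 matches. The 2 commonest of 6 placements, 25 on the coding strand in frame position 2 and 28 on the other strand in position 1 (counted from 0 at the first base of a codon), together made 56.4%. In coding windows without a peak the same 2 placements made 54.8% of 93 matches, so the frame of the matches resembled that of the string in coding sequence at large.

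Coding peaks with a CTCF match lay a median of 11292.5 bp from a start site, against 3490 bp for the rest. Their share was 1.05% at 500 to 1000 bp, 3.64% at 1000 to 2000 bp, 7.14% at 2000 to 5000 bp, 4.46% at 5000 to 10000 bp and 8.69% at 10000 to 50000 bp. In intronic peaks the share was 1.61, 2.88, 7.42, 8.75 and 9.93% in the same order of classes. Coding peaks were thus above intronic ones at 1000 to 2000 bp and below them in the others. Peaks outside protein-coding genes were above coding peaks in each class, with 3.46% at 500 to 1000 bp and 11.7% at 10000 to 50000 bp. Among coding peaks the share was 1.12% in first and 6.47% in internal coding intervals. Coding peaks with a CTCF match were stronger than the rest, with medians of 1.16 against 0.862 in replicate 1 and 1.75 against 0.812 in replicate 2. The log2 difference was 0.43 in replicate 1 and 1.11 in replicate 2 (0.77 ± 0.48, SD, n = 2), so its size was not alike in the 2 mice.

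The strongest CTCF peak was in Atn1, a transcriptional co-repressor gene, with 8.94 in replicate 1 and 7.998 in replicate 2. It was followed by Flot1, a membrane scaffold gene, with 8.72 and 5.38, and Synpo2l, an actin-binding protein gene, with 6.64 and 6.66. Pgls, an enzyme of the pentose phosphate pathway, had 4.97 and 6.62. Of these 4, Synpo2l and Pgls were higher in replicate 2, unlike the 12 strongest coding peaks overall.

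The ratio of the 2 mice moved with the strings. The median log2 ratio of replicate 2 to replicate 1, less that of all shared peaks, was 0.07 over all coding peaks and -0.24 over TSS-proximal peaks. It was 0.74 in the 124 coding peaks with CTCF, of which 91.9% were above the median of all shared peaks, and 1.03 in the 4632 peaks with CTCF in introns or outside genes. It was -0.31 in the 100 coding peaks with RUNX, of which 38.0% were above, and -0.34 in the 4716 others with RUNX. With TCF/LEF it was -0.50 in 71 coding peaks and -0.28 in 1918 others. With the CAGCTG E-box it was -0.11 in 616 coding peaks and -0.31 in 10613 others. For SP/KLF the sign differed, at 0.13 in coding peaks and -0.14 in the others. Each of these values compares 1 mouse with 1 other.

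**Figure D5:**
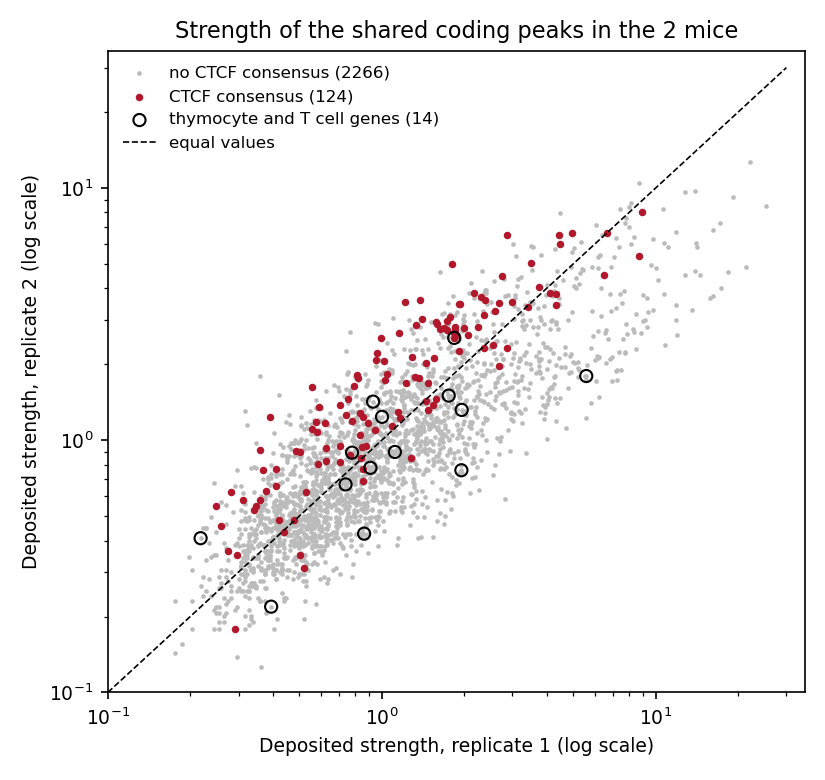
Deposited strength of the 2390 coding peaks in replicate 1 and replicate 2 (log scales). Peaks with a CTCF match lie mostly above the line of equal values, those of thymocyte and T cell genes (rings) on both sides, and the strongest peaks without a CTCF match mostly below it.

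Footprints were less frequent in coding peaks than in shared peaks at large. In replicate 1, 83.6% held at least 1 footprint against 90.8% of all shared peaks, and in replicate 2 77.0% against 86.2% (80.3 ± 4.65% in coding peaks, SD, n = 2). A footprint that overlapped one of the other mouse was found in 55.3%, against 69.6% of all shared peaks. The gap to intronic peaks was narrow in the strongest 25%, where nearly all peaks held a footprint, and widest in the 25% above the weakest. There 80.6% of coding and 89.5% of intronic peaks held one in replicate 1, and 73.4% and 82.3% in replicate 2. Among the strongest 25% of shared peaks 99.4% of coding and 99.5% of intronic peaks held a footprint in replicate 1, whereas among the weakest 25% it was 75.3% against 80.4%, and in replicate 2 61.5% against 68.8%. By distance, the share in coding peaks was 68.0 and 59.9% in replicates 1 and 2 at 500 to 1000 bp from a start site, and 91.8 and 86.0% at 10000 to 50000 bp. Intronic peaks of these 2 classes had 73.1 and 58.8%, and 93.2 and 89.4%. At 5000 to 10000 bp the shares were 94.6 and 89.5% in coding peaks and 93.8 and 90.3% in intronic peaks. Beyond 50000 bp they were 86.9 and 79.8% against 91.0 and 86.4%. The part of distance in the gap to all shared peaks was not tested.

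Coding peaks overlapped 5937 footprints in replicate 1 and 5325 in replicate 2, with median widths of 10 and 9 bp. Of these, 77.5 and 76.6% were wholly coding and 18.0 and 18.9% held no coding base. Coding bases made up 80.1 and 79.1% of footprint bases and 77.4% of the bases of the peaks, so footprints were spread over the coding and noncoding bases of a peak nearly in proportion. A footprint of the other mouse was overlapped by 45.7% of those in replicate 1 and 51.6% of those in replicate 2.

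The most footprints common to both mice were in Ankrd24, with 8, and in Fbxl22 and Abi3, with 7 each. Ankrd24 held 10 and 7 footprints in replicates 1 and 2 over 280 bp of a long internal interval (chr10:81643701-81643980). Fbxl22, an F-box protein gene of striated muscle, held 7 and 9 over 300 bp of its last coding interval (chr9:66511621-66511920). Abi3, an adaptor gene expressed in blood cells, held 9 and 7 over 360 bp (chr11:95834161-95834520), of which 23.9% was coding, and had strengths of 21.4 and 4.88. The strong Abi3 peak is thus mostly intronic, with its midpoint in an exon of 86 coding bp.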

How the data were processed

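Each replicate has its own peaks, footprints and track of false discovery rates, which the authors made from mm10 alignments of that replicate alone, per the deposited listings. Aligner, callers, settings and the handling of CAST/EiJ reads: not given in the sources used here. Peaks carry 1 value that was used, the signal the authors deposited, called strength; all strengths were whole multiples of 1 step per replicate (0.00519 and 0.00576, tolerance 0.05 steps), and the depth is unknown. The deposited track holds q-values (false discovery rates) for runs of bases. It was used for the check that 1586 coding peaks (66.4%) reached 0.001 in both tracks. The p-value column of the deposited footprints is 0.01 throughout and was not used.

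The longer of 2 peak lists per replicate was used. A shared peak took the replicate 2 strength of the peak with the longest overlap. Classes were assigned by midpoint in the order TSS-proximal, coding, untranslated exon, intron, elsewhere, from GENCODE M21 basic; densities divide by bases that are not N. Gene lists (8), symbol families (12), strings (16) and the coding peaks themselves were chosen with earlier results of these data known. Named peaks followed a rule: the 12 strongest, the 5 genes with most coding peaks, those in the thymocyte and T cell list, the 5 strongest with CTCF (1 is not reported here, nor are 2 other items), the 3 with most footprints in both mice, those nearest the 500 bp limit, and the strongest repeated one. Krt222, Krt86, Dgkz, Spi1, Apoa1 and the second Zfp771 peak were named after their values were seen. Coordinates are 1-based. Python 3.11.15 with numpy 2.4.6, pandas 2.3.3, scipy 1.17.1 and numba 0.67.0 was used, and the overlap, class, distance, string and copy searches were tested on simulated data and returned every planted answer.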

Additional observations from a re-analysis of the deposited data

How the results depend on the processing

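The number of coding peaks, 2390, was 1494 with the stricter peak lists, 1593 with a reciprocal overlap of 50%, 1434 at 2000 bp from a TSS, and 3425 to 3709 with either replicate left out. The density ratio to introns, 2.59, was 2.10 at 2000 bp and 2.37 to 3.02 with either left out. The log2 strength difference from introns, -0.06, was small and not stable: it was 0.044 with reciprocal overlap, -0.0076 with stricter lists, -0.023 at 2000 bp, -0.064 with TSSs of all genes, -0.081 when 50% of bases had to be coding, -0.060 with replicate 2 intervals, -0.063 without repeated sequence, and -0.20 to -0.058 with a replicate left out. The cause of the reversal was not tested. Sharing, 65.7%, was 69.6% with stricter lists and 44.4% with reciprocal overlap. The share with a footprint, 80.3%, was 87.4% with reciprocal overlap, 88.8% at 2000 bp and 72.6 to 75.3% with a replicate left out, where peaks of 1 mouse alone enter. The CTCF share, 5.19%, was 6.43% with stricter lists, 7.22% with reciprocal overlap, 7.25% at 2000 bp and 3.40 to 3.74% with a replicate left out. The other alternatives moved these values by less than the spread between replicates, the Wilson interval or, for the number, 1.5 times.

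No paired analysis was possible because the replicate numbers are shared by no second group. The depth behind the strengths is unknown, so they carry no counting interval. The reference is C57BL/6J, so strings present only on CAST/EiJ alleles were missed.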

Other observations

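The weak and strong ends of the coding peaks differed in more than strength. The lower of the 2 percentiles of strength among all shared peaks was under 25 for 958 coding peaks (40.1%). It was over 75 for 164 up to the 90th percentile and for 35 beyond it. In these 3 groups the CTCF consensus was found in 2.92%, 11.0% and 5.71%, the last being 2 of 35 peaks and too few to set against the others. The median GC content was 59.5%, 62% and 66.5%, and the median CpG ratio 0.484, 0.570 and 0.764. The mean number of footprints per peak in replicate 1 was 1.73, 4.23 and 5.31. The median distance to a start site was 3837, 4378 and 2165 bp.

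Coding peaks in genes without an open promoter held a footprint more often: 90.2% of them in replicate 1 and 85.9% in replicate 2 held at least 1, against 81.7 and 74.4% in genes with an open promoter. The CTCF consensus was in 7.41% of the former and 4.54% of the latter. Of the former 23.5% lay within 2000 bp of a start site, and of the latter 44.8%, and the part of distance in these differences was not tested.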
